A study of Mus musculus with 12 samples.

Results

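The genes described here are 10 transcripts of the brakes on T cells: the inhibitory checkpoint receptors Pdcd1, Ctla4, Lag3, Havcr2, Tigit, Cd160 and Btla, and the exhaustion-linked transcription factors Tox, Nr4a2 and Nr4a3. They were taken by symbol from the gene expression table, where all 10 were present among 18211 genes. They were measured by RNA-seq in 12 tumors of MC38, a mouse colon adenocarcinoma line, grown under the skin of female C57BL/6 mice that were 5 weeks old at the start, with 3 tumors in each of 4 groups. CK mice received the vehicle. PB-020 mice received 50 mg/kg of PB-020, which inhibits IGF-1R, a receptor for insulin-like growth factors, by mouth each day from day 7 after cell injection. Anti-PD-1 mice received 200 µg of the antibody RMP1-14 by injection on days 9, 12, 15 and 18, and mice in the combination group received both agents. MC38 is a single transplanted line in a host with an intact immune system, and each library was made from total RNA of ground tumor, so it mixes cancer cells with every host cell in the piece.

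Inhibitory receptors are induced when a T cell is activated, and they dampen signalling through the antigen receptor and CD28. When antigen persists, as in tumors, T cells keep several of these receptors at once and enter a state called exhaustion, which depends on TOX and in which the NR4A nuclear receptors take part. The receptors are not confined to exhausted CD8 T cells: regulatory T cells carry CTLA-4 and TIGIT, macrophages and dendritic cells carry TIM-3, natural killer cells carry CD160, and B cells carry BTLA. NR4A genes are also immediate early genes that many cell types, cancer cells included, switch on within a short time of a stimulus. In bulk tumor RNA, fewer cells of a type and less RNA per cell cannot be told apart.

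Promoter sequence is shown for 4 members because they cover the patterns below: Pdcd1 and Ctla4 had the largest log2 changes between tumors with and without the antibody, Havcr2 was the most abundant member, and Nr4a2 was the member that did not move with the others. Each line is the 250 bases upstream of the transcription start, 5′ to 3′ on the gene's strand, from the RefSeq promoter table of GRCm38.p6, which lists a window for 8 of the 10 members, all but Lag3 and Tox. Capitals mark matches, on either strand, to TTTCC, the core of the site for NFAT, the calcium-dependent factor of antigen receptor signalling, and to TGANTCA, the site for AP-1.
Pdcd1, chr1:94052554-94052803, minus strand: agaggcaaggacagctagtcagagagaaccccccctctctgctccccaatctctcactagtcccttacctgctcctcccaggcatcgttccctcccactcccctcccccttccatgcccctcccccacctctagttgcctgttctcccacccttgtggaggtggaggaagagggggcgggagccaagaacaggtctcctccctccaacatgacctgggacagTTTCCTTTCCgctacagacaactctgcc
Ctla4, chr1:60908775-60909024, plus strand: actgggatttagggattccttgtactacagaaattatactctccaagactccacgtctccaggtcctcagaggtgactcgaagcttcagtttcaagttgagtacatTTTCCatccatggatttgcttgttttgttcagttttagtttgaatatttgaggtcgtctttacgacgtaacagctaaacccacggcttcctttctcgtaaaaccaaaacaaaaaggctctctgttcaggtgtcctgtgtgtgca
Havcr2, chr11:46454681-46454930, plus strand: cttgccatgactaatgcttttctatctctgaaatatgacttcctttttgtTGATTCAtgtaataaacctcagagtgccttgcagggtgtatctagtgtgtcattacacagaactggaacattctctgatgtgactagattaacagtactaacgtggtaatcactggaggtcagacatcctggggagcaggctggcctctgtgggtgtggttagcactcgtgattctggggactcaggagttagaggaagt
Nr4a2, chr2:57124004-57124253, minus strand: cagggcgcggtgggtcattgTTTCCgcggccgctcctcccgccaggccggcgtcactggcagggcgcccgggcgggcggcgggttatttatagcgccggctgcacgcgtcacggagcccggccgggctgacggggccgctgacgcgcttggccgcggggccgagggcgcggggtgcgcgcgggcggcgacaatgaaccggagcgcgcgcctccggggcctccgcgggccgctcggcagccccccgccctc
TTTCC was found in 5 of the 9 member windows (Cd160 has more than 1 start), and it occurs in 55.6% of all 32851 windows of this length, so its presence does not set the members apart. TGANTCA was found in 1 member window, that of Havcr2, against 6.75% of all windows. The cAMP response element TGACGTCA and the NR4A monomer site AAAGGTCA were found in 0 of 9 member windows, against 1.55% and 1.34% of all windows. No matches of different motifs overlapped in the member windows, and a match is only a run of letters, not evidence of binding.

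The libraries held 16545394 to 17217035 expected counts each, and 13563 genes, including all 10 members, passed the filter on low counts. Most members were rare transcripts. Tox had 5 to 34 counts per tumor, Cd160 7 to 48 and Btla 16 to 39, whereas Havcr2 had 180 to 500. Some libraries stood apart. Anti-PD-1 tumor 1 had a summed level of 8 skeletal muscle genes of 523.9 FPKM (fragments per kilobase of transcript, scaled to the library total), against 9.52 to 56.95 in the other 11, and CK tumor 3 had a summed neutrophil level of 393.3 FPKM against 7.77 to 36.64. Of 7 epithelial genes expected of a colon carcinoma, Krt8, Krt18, Krt19, Epcam, Cdx2 and Vil1 did not pass the filter, and none of these 6 exceeded 0.54 FPKM in any tumor.

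Tumors given the anti-PD-1 antibody had higher RNA levels of most inhibitory receptors. Compared with CK, 5 of the 10 members were called higher with the antibody alone (Pdcd1, Ctla4, Lag3, Tigit and Tox), and 7 with the combination, which added Havcr2 and Cd160. The call is an adjusted p under 0.05 by edgeR's quasi-likelihood test with Benjamini-Hochberg adjustment over all 13563 genes, of which 4.18% were called higher with the antibody alone and 8.35% with the combination. Over the 10 members the median log2 change was 1.05 with the antibody alone and 1.34 with the combination, while the median over all genes was 0.00 in both. With both antibody groups set against both groups without it, 6 tumors against 6, 7 members were called higher, against 11.8% of all genes, and none was called lower, against 12.3% of all genes. All 3 tumors lay above all 3 CK tumors for 7 members with the antibody alone (13.9% of all genes) and for 9 with the combination (19.6%). The 2 groups given the antibody were compared with the same CK tumors, so their similarity is in part shared.

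**Figure D1:**
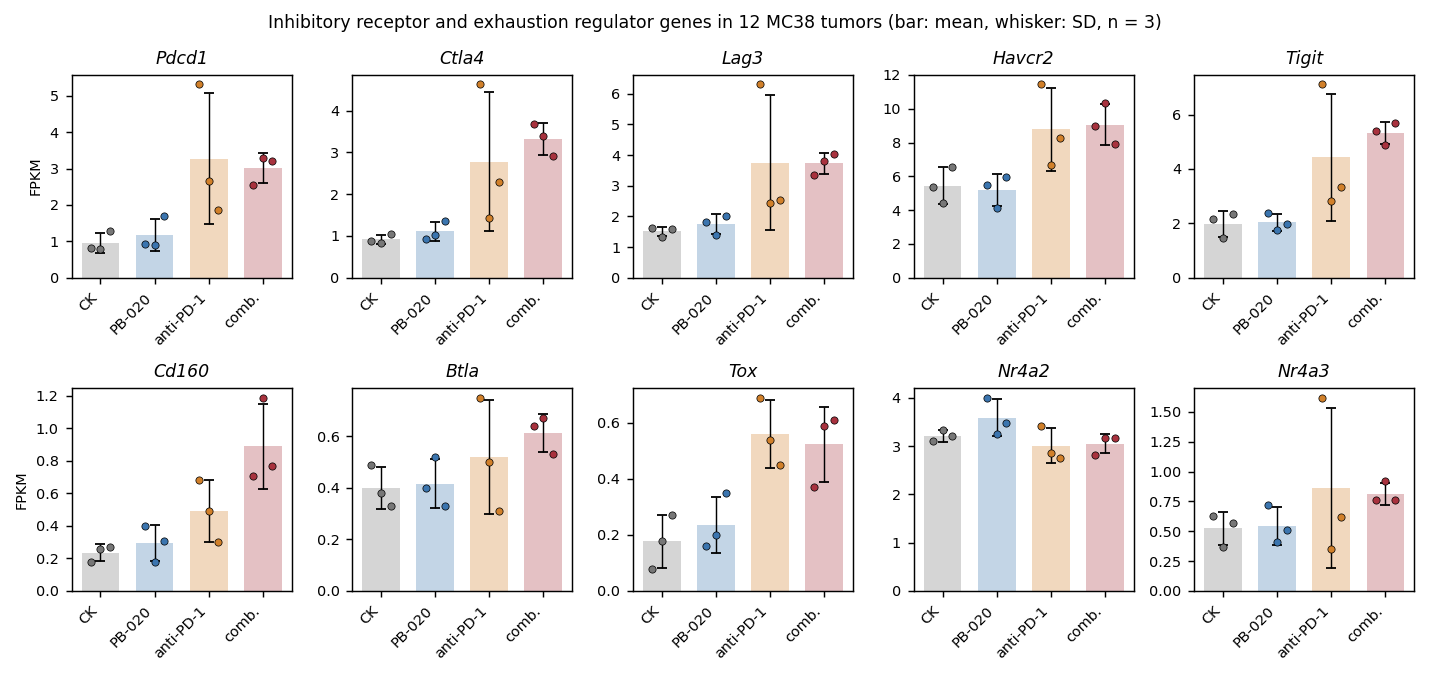
FPKM of each of the 10 genes (y axis, own scale per panel, starting at 0) in the 4 groups (x axis, comb. = PB-020/anti-PD-1 combination). Points are tumors, bars are means and whiskers are SD over 3 tumors. For Pdcd1 the antibody-treated tumors lie between 1.86 and 5.32 and the others between 0.79 and 1.69, while Nr4a2 stays between 2.76 and 4.01 in all tumors.

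Pdcd1 (chr1:94038305-94052553) encodes PD-1, the receptor that the antibody binds. Its RNA stood at 0.81, 0.79 and 1.28 FPKM in the CK tumors and at 0.93, 0.90 and 1.69 FPKM with PB-020. It was at 5.32, 2.65 and 1.86 FPKM with anti-PD-1 and at 2.55, 3.28 and 3.21 FPKM with the combination. All 6 tumors given the antibody lay above all 6 that were not, and the anti-PD-1 group was wide while the combination group was tight. The mean FPKM was 3.41 times that of CK with anti-PD-1 and 3.14 times with the combination. The log2 change was 1.79 (SE 0.37, adjusted p = 0.0168) and 1.67 (SE 0.37, adjusted p = 0.0111), and it was 1.57 (SE 0.26, adjusted p = 0.00182) for 6 tumors against 6.

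Ctla4 (chr1:60909025-60915832) encodes CTLA-4, which competes with CD28 for CD80 and CD86. Its level was 0.88, 0.83 and 1.04 FPKM in CK and 0.93, 1.03 and 1.36 FPKM with PB-020. It was 4.63, 1.42 and 2.29 FPKM with anti-PD-1 and 3.67, 3.38 and 2.91 FPKM with the combination. Again the tumors with and without the antibody did not overlap, although anti-PD-1 tumor 2 was close to the highest PB-020 tumor. The change against CK was 1.62 on the log2 scale (SE 0.35, adjusted p = 0.0176) with the antibody alone and 1.87 (SE 0.35, adjusted p = 0.00455) with the combination.

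Lag3 (chr6:124904359-124912434) encodes a receptor that binds MHC class II. It measured 1.62, 1.34 and 1.58 FPKM in CK, and 1.82, 1.39 and 2.02 FPKM with PB-020. It measured 6.31, 2.44 and 2.52 FPKM with anti-PD-1, and 3.35, 3.80 and 4.04 FPKM with the combination. The group means with the antibody were alike, at 3.76 and 3.73 FPKM, but that of the anti-PD-1 group rested on 1 high tumor. The log2 change against CK was 1.24 (SE 0.31, adjusted p = 0.0302) and 1.23 (SE 0.31, adjusted p = 0.0175).

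Tigit (chr16:43626137-43665125) encodes a receptor for the poliovirus receptor that is shared with the costimulatory receptor CD226. CK tumors had 2.17, 1.45 and 2.33 FPKM, and PB-020 tumors 2.39, 1.77 and 1.96 FPKM. Anti-PD-1 tumors had 7.12, 2.83 and 3.33 FPKM, and combination tumors 5.41, 4.89 and 5.69 FPKM. No tumor without the antibody reached the lowest tumor given it. The log2 change against CK was 1.18 (SE 0.33, adjusted p = 0.0418) with the antibody alone and 1.44 (SE 0.32, adjusted p = 0.0106) with the combination.

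Havcr2 (chr11:46454931-46481255) encodes TIM-3, and per length it was the most abundant member in every group. Its levels were 5.34, 4.41 and 6.57 FPKM in CK, 5.46, 4.13 and 5.93 FPKM with PB-020, 11.45, 6.64 and 8.26 FPKM with anti-PD-1, and 8.97, 10.33 and 7.89 FPKM with the combination. The lowest antibody-treated tumor was just above the highest CK tumor. It had the smallest change of the 7 called members: 0.76 on the log2 scale (SE 0.21, adjusted p = 0.0285) with the combination and 0.71 (SE 0.21), short of the threshold at an adjusted p of 0.0556, with the antibody alone. Against tumors without the antibody, 6 against 6, it was 0.76 (SE 0.15, adjusted p = 0.00466).

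Cd160 (chr3:96798763-96829351) encodes a receptor of natural killer cells and cytotoxic T cells that binds HVEM. It was at 0.18, 0.26 and 0.27 FPKM in CK, 0.40, 0.18 and 0.31 FPKM with PB-020, 0.68, 0.49 and 0.30 FPKM with anti-PD-1, and 0.71, 1.19 and 0.77 FPKM with the combination. Its mean was therefore highest with the combination, at 3.76 times CK, against 2.07 times with the antibody alone. The combination was called higher than CK, with a log2 change of 1.78 (SE 0.40, adjusted p = 0.0106), and the antibody alone, at 0.92 (SE 0.41, adjusted p = 0.172), was not. A stretch of 68 bases overlaps Pdzk1 on the other strand, and whether the counting used strand was not given in the sources used here.

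Btla (chr16:45223705-45252895) encodes another receptor for HVEM. It ranged from 0.33 to 0.49 FPKM in CK, 0.33 to 0.52 FPKM with PB-020, 0.31 to 0.75 FPKM with anti-PD-1 and 0.53 to 0.67 FPKM with the combination. The 3 combination tumors lay above all CK tumors, but the log2 change of 0.74 (SE 0.33, adjusted p = 0.136) did not pass the test.

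Among the transcription factors, Tox was called higher and the NR4A genes were not. Tox (chr4:6686353-6991557) encodes the nuclear factor that establishes the exhausted state in T cells. By mean FPKM it was the rarest member in every group but anti-PD-1. It was at 0.08, 0.18 and 0.27 FPKM in CK, 0.16, 0.20 and 0.35 FPKM with PB-020, 0.69, 0.54 and 0.45 FPKM with anti-PD-1, and 0.37, 0.59 and 0.61 FPKM with the combination. The groups with and without the antibody were separated by only a small margin. The log2 change against CK was 1.54 (SE 0.42) in both, with an adjusted p of 0.0410 for the antibody alone and 0.0254 for the combination. An antisense transcript, Gm11802, overlaps Tox on the other strand and is not listed separately, so reads from it cannot be told from those of Tox unless strand was used.

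Nr4a2 (chr2:57106830-57124003) encodes NURR1, an orphan nuclear receptor. It was at 3.10, 3.34 and 3.21 FPKM in CK, 4.01, 3.26 and 3.49 FPKM with PB-020, 3.42, 2.86 and 2.76 FPKM with anti-PD-1, and 2.82, 3.18 and 3.17 FPKM with the combination. It was the only member whose fitted change was negative with the antibody: -0.08 (SE 0.12, adjusted p = 0.704) alone and -0.09 (SE 0.12, adjusted p = 0.604) in the combination, both on the log2 scale. Its 95% interval for the 6 against 6 comparison ran from -0.34 to 0.01, so it leaves out a rise of the size seen for the receptors.

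Nr4a3 (chr4:48045078-48086447) encodes NOR-1, the related nuclear receptor. It had 0.63, 0.37 and 0.57 FPKM in CK, 0.72, 0.41 and 0.51 FPKM with PB-020, 1.62, 0.35 and 0.62 FPKM with anti-PD-1, and 0.76, 0.92 and 0.76 FPKM with the combination. Anti-PD-1 tumors were both the highest and the lowest of all 12. The log2 change of 0.71 (SE 0.43, adjusted p = 0.313) with the antibody alone turned to -0.09 when anti-PD-1 tumor 1 was left out. That tumor is the one with the high skeletal muscle level, whose part in the Nr4a3 value was not tested.

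**Figure D2:**
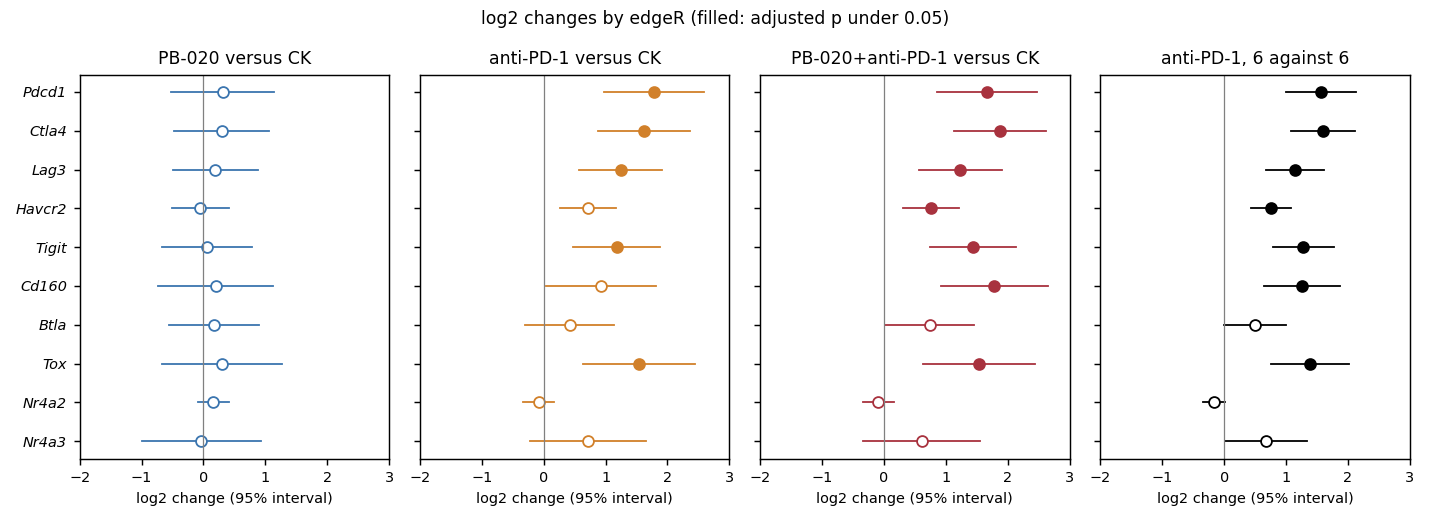
log2 changes of the 10 genes (x axis) with 95% intervals for PB-020, anti-PD-1 and the combination against CK and for the 6 tumors with anti-PD-1 against the 6 without. Filled points have an adjusted p under 0.05 by edgeR: 0, 5, 7 and 7 genes from left to right.

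No member was called with PB-020 alone. In PB-020 against CK, 0 of the 10 were called by edgeR, 0 had an unadjusted p under 0.05, and 0 were called by DESeq2 or limma. Of all genes, 0% were called and 5.46% had an unadjusted p under 0.05. The FPKM values of PB-020 and CK tumors overlapped for all 10, whereas 7.78% of all genes lay wholly above CK and 6.47% wholly below. The median log2 change of the members was 0.18, and 8 of the 10 were positive. The intervals were too wide to say that the levels were equal: for Pdcd1 the log2 change was 0.31 with a 95% interval from -0.53 to 1.15, for Ctla4 0.29 (-0.48 to 1.07) and for Tox 0.30 (-0.67 to 1.27). For Havcr2, with more counts, it was -0.05 (-0.51 to 0.41), and for Nr4a2 0.16 (-0.09 to 0.41). None of the 10 intervals reached the change of 1.57 seen for Pdcd1 with the antibody, 6 tumors against 6. The intervals of Btla (up to 0.90) and Nr4a3 (up to 0.92) did take in those genes' own changes in that comparison, 0.50 and 0.68. They also took in those genes' changes with the antibody alone against CK, 0.42 and 0.71. So did the intervals of Cd160 (up to 1.12) and Nr4a2, whose changes with the antibody alone were 0.92 and -0.08.

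Adding PB-020 to the antibody changed no member past the threshold either. In the combination against anti-PD-1, edgeR called 0 of the 10, again with 0% of all genes called, and DESeq2 and limma called 0. A single member, Cd160, had an unadjusted p under 0.05 by edgeR, as did 7.26% of all genes. All 3 combination tumors lay above all 3 anti-PD-1 tumors, as was so for 4.33% of genes, and the log2 difference was 0.86 (SE 0.38, 95% interval 0.05 to 1.67, adjusted p = 0.669). For the other 9 members the tumors of both groups overlapped. The log2 difference was -0.12 for Pdcd1 (95% interval -0.87 to 0.63), 0.25 for Ctla4 (-0.44 to 0.94), -0.01 for Lag3 (-0.65 to 0.63), 0.26 for Tigit (-0.40 to 0.93) and 0.05 for Havcr2 (-0.40 to 0.49). The number of members with an unadjusted p under 0.05 by edgeR changed with anti-PD-1 tumor 1, the highest tumor for 8 members. With any other tumor left out, that number was 0 or 1, in fits where 2.6% to 10.6% of all genes had such a p. Without anti-PD-1 tumor 1 it was 6, against 7.91% of all genes, and 0 were called by edgeR (adjusted p from 0.505 to 0.942). The log2 difference was then 0.82 for Ctla4, 0.78 for Tigit, 0.54 for Lag3 and 1.17 for Cd160. Averaged over both antibody settings, the effect of PB-020 also passed for 0 members, with 0 at an unadjusted p under 0.05 by edgeR (10.9% of all genes) and 0 called by limma. Without anti-PD-1 tumor 1, 4 members (Ctla4, Lag3, Tigit and Cd160) had an unadjusted p under 0.05, against 11.2% of all genes, and 0 were called by edgeR (lowest adjusted p = 0.316). With any other tumor left out, 0 or 1 member had such a p by edgeR, against 6.77% to 13.8% of all genes. The interaction of the 2 treatments passed for 0, with 0 at an unadjusted p under 0.05 by edgeR (2.29% of all genes) and 0 called by DESeq2 or limma. Its fitted value was largest for Cd160, at 0.67 (SE 0.58, 95% interval -0.57 to 1.91).

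Adding the antibody to PB-020 was followed by 3 calls. The combination tumors lay above all PB-020 tumors for 9 members (14.6% of genes) and below them for Nr4a2 (16.5% of genes). Of these, 3 were called, against 1.25% of all genes called higher: Ctla4, with a log2 change of 1.58 (SE 0.34, adjusted p = 0.0319), Tigit at 1.38 (SE 0.32, adjusted p = 0.0386) and Cd160 at 1.59 (SE 0.40, adjusted p = 0.0467). Pdcd1, at 1.36 (SE 0.37, adjusted p = 0.0599), Lag3, Havcr2 and Tox missed the threshold. Nr4a2 differed by -0.25 (SE 0.12, adjusted p = 0.221). The count depended on the fit: DESeq2 called 6, and leaving out any 1 tumor of the PB-020 or combination group left 0 called by edgeR, in fits that called 0 to 397 of all genes.

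Which fit and which tumors were used also mattered for the antibody alone. The 5 edgeR calls against CK became 0 in a fit of those 6 tumors alone, which called 3 of all genes and gave 6 members an unadjusted p under 0.05. They also became 0 without CK tumor 2, the tumor with the lowest CD3 level, in a fit that called 137 of all genes and gave 6 members an unadjusted p under 0.05. Without anti-PD-1 tumor 1, 2 members and 4.57% of all genes were called, against 8.26% with all tumors. Of the 12 fits that left out 1 tumor, Pdcd1 and Ctla4 were called in 11, Lag3 in 8, Tox in 5 and Tigit in 2. Those fits called 0.996% to 13.8% of all genes. The 7 calls with the combination became 2 without CK tumor 2, where 6.28% of all genes were called, against 17.9% with all tumors. The comparison of 6 tumors against 6 was steadier: the same 7 members, Pdcd1, Ctla4, Lag3, Havcr2, Tigit, Cd160 and Tox, were called in each of the 12 fits that left out 1 tumor. In that comparison, all 6 antibody-treated tumors lay above all 6 others for Pdcd1, Ctla4, Lag3, Havcr2, Tigit and Tox, an order found for 4.1% of all genes.

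**Figure D3:**
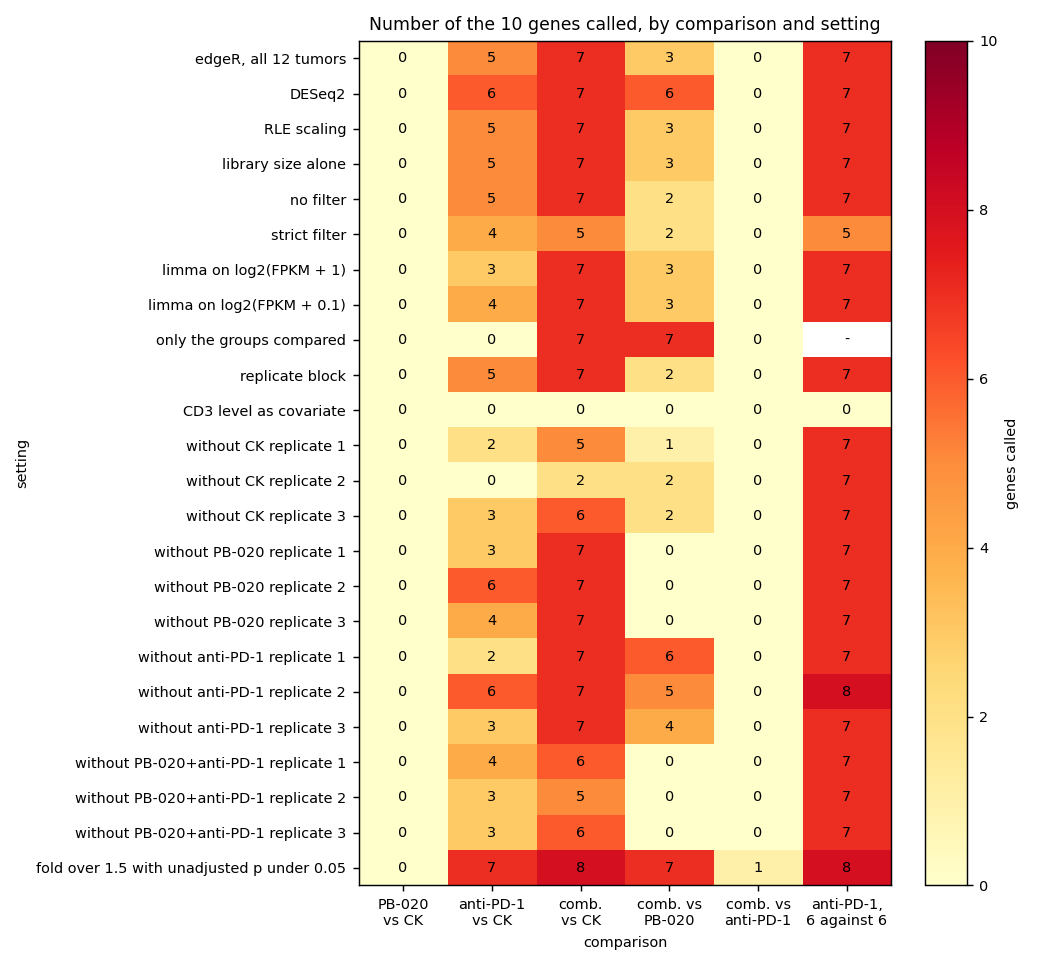
Number of the 10 genes called (cell value and color) for 6 comparisons (x axis, comb. = combination) under each setting (y axis). The column of 6 tumors against 6 reads 7 in most rows and 0 with the CD3 level as covariate, whereas anti-PD-1 against CK ranges from 0 to 7, the 7 being the rule of fold over 1.5 with unadjusted p under 0.05.

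The T cell genes moved together with the receptors. The summed FPKM of Cd3d, Cd3e and Cd3g, the invariant chains of the T cell receptor complex, was 6.22 ± 1.61 (SD, n = 3) in CK, 9.02 ± 1.46 with PB-020, 17.6 ± 9.36 with anti-PD-1 and 19.6 ± 5.59 with the combination. Its ranges of 11.89 to 28.35 FPKM and 14.02 to 25.19 FPKM in the antibody groups did not overlap those of 4.49 to 7.66 FPKM and 7.52 to 10.43 FPKM in the others. Of 11 T cell markers tested, 10 were called higher with anti-PD-1 and 10 with the combination, against 4.18% and 8.35% of all genes. Their median log2 changes were 1.53 and 1.60, above those of the members. The summed level of the 12 listed T cell genes was 12.37 to 17.25 FPKM in CK, 18.21 to 23.02 with PB-020, 28.49 to 65.6 with anti-PD-1 and 35.32 to 53.29 with the combination. Of 5 markers of CD4 and regulatory T cells, 2 were called higher in each antibody group, against the same shares of all genes. They were Foxp3 and Ctla4, itself a member. Foxp3, the factor of regulatory T cells, had a log2 change of 1.33 (SE 0.35, adjusted p = 0.0360) with anti-PD-1. By contrast, 0 of 9 macrophage markers were called by edgeR in either antibody group against CK, and Adgre1, which encodes F4/80, had a log2 change of 0.22 (SE 0.22) with anti-PD-1 and 0.03 (SE 0.22) with the combination. Of 7 natural killer cell markers, 2 were called higher with anti-PD-1 and 3 with the combination, and of 8 dendritic cell markers 0 (edgeR) and 1. These counts stand against the same 4.18% and 8.35% of all genes, and the dendritic cell share is near them. In 6 tumors against 6, 11.8% of all genes were called higher. There, 4 of the 8 dendritic cell markers were called higher, with a median log2 change of 0.55. So were 3 of the 7 natural killer cell markers and 1 of the 9 macrophage markers, the last a share near that of all genes. All 5 erythroid genes were called lower in both, against 4.08% of all genes called lower with anti-PD-1 and 9.6% with the combination. Their summed level was 679.1 to 1556 FPKM in CK, 449.4 to 1046 with PB-020, 100.6 to 379.6 with anti-PD-1 and 126.6 to 183.8 with the combination. Of 6 fibroblast markers, 3 were called lower in both and 0 higher, but the list was split. The mean FPKM of Col3a1, Pdgfra and Dcn was below that of CK in both antibody groups. That of Col1a1, Col1a2 and Lum was above it. The median log2 change of the 6 was -0.11 with anti-PD-1 and -0.29 with the combination. The part of these cell types in the values of the 10 members was not tested beyond the CD3 comparisons that follow.

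Set against the CD3 sum of the same tumor, Pdcd1, Ctla4, Tigit, Lag3, Cd160 and Tox showed no common order of the groups. Pdcd1 stood at 15.6% of the CD3 sum in CK, 12.8% with PB-020, 18.7% with anti-PD-1 and 15.9% with the combination. Ctla4 stood at 15.2%, 12.3%, 15.6% and 18.2%, and Tigit at 32.0%, 22.9%, 25.3% and 29.0%, in the same order. Lag3 was at 25.1%, 19.3%, 21.0% and 19.9%, and Cd160 at 4.03%, 3.25%, 2.98% and 4.58%. Tox was at 2.92%, 2.59%, 3.53% and 2.70%. For Pdcd1 the tumors ranged from 13.0% to 22.3% with the antibody and from 10.2% to 17.6% without it, so the groups overlapped. The ranges overlapped for every other member as well, with the exception of Nr4a2.

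Btla, Havcr2 and the NR4A genes had lower mean ratios to CD3 in both antibody groups than in CK, as did Lag3 and Tigit above. Lag3 stood at 0.838 and 0.792 times CK and Tigit at 0.789 and 0.907 times, with anti-PD-1 and the combination. Btla stood at 6.76% of the CD3 sum in CK, 4.82% with PB-020, 3.12% with anti-PD-1 and 3.31% with the combination. Its range in CK, 4.31% to 8.46%, lay above that with anti-PD-1, 2.50% to 4.21%, and overlapped the others. Havcr2 was at 88.6% of the CD3 sum in CK, 57.2% with PB-020, 54.3% with anti-PD-1 and 48.5% with the combination. The CK tumors, at 81.9% to 98.2% for Havcr2, lay above all others, which reached 66.6% at most. With PB-020 alone the mean ratio was below that of CK for every member, from 0.646 times CK for Havcr2 to 0.887 times for Tox. The mean of Havcr2 itself was 5.44 FPKM in CK and 5.17 FPKM with PB-020, while the CD3 sum was 6.22 and 9.02 FPKM. Nr4a2 went from 54.6% in CK and 40.3% with PB-020 to 19.5% and 16.3%, and its range of 12.1% to 24.1% in the antibody-treated tumors lay below that of 33.5% to 74.4% in the others. The mean of Nr4a2 itself stayed between 3.01 and 3.59 FPKM, while the CD3 sum differed between the groups. Nr4a3 was at 8.45%, 6.08%, 4.55% and 4.32%. Its CK range of 7.44% to 9.66% lay above those of 2.94% to 5.71% with anti-PD-1 and 3.65% to 5.42% with the combination.

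**Figure D4:**
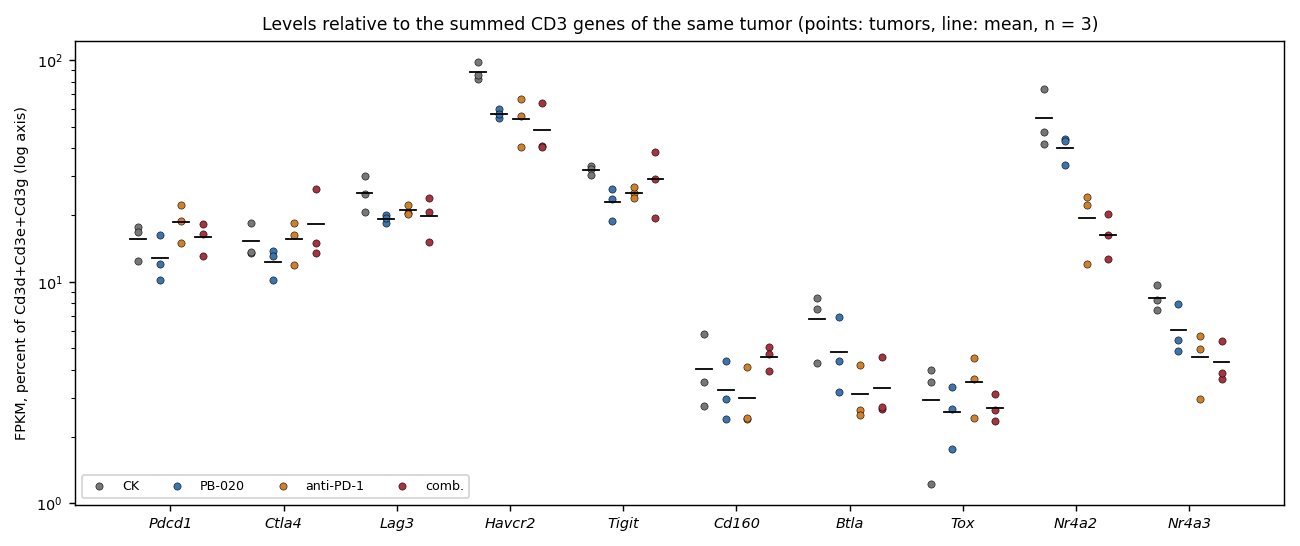
FPKM of each gene as a percent of the summed Cd3d, Cd3e and Cd3g FPKM of the same tumor (y axis, log scale), by gene (x axis) and group (color, comb. = combination). Points are tumors and lines are means of 3. Pdcd1 and Ctla4 overlap across groups, while Nr4a2 is at 12.1% to 24.1% with the antibody and at 33.5% to 74.4% without it.

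With the log2 CD3 level as a covariate in the edgeR model, no member was called in any comparison, and few genes of any kind were: 0.192% of all genes in 6 tumors against 6, 0.103% in anti-PD-1 against CK and 1.07% in the combination against CK. In 6 tumors against 6, 0 passed in that model, 0 reached 0.05 without adjustment, and adjusted p values spanned 0.286 to 0.980. The log2 change of Pdcd1 went from 1.57 to 0.41, that of Ctla4 from 1.60 to 0.67, that of Tox from 1.39 to 0.62 and that of Lag3 from 1.14 to 0.09. The CD3 level did not overlap between tumors with and without the antibody, so in this fit a treatment effect and an effect of the T cell level cannot be told apart, and remaining changes of this size cannot be placed above or below 0.

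**Figure D5:**
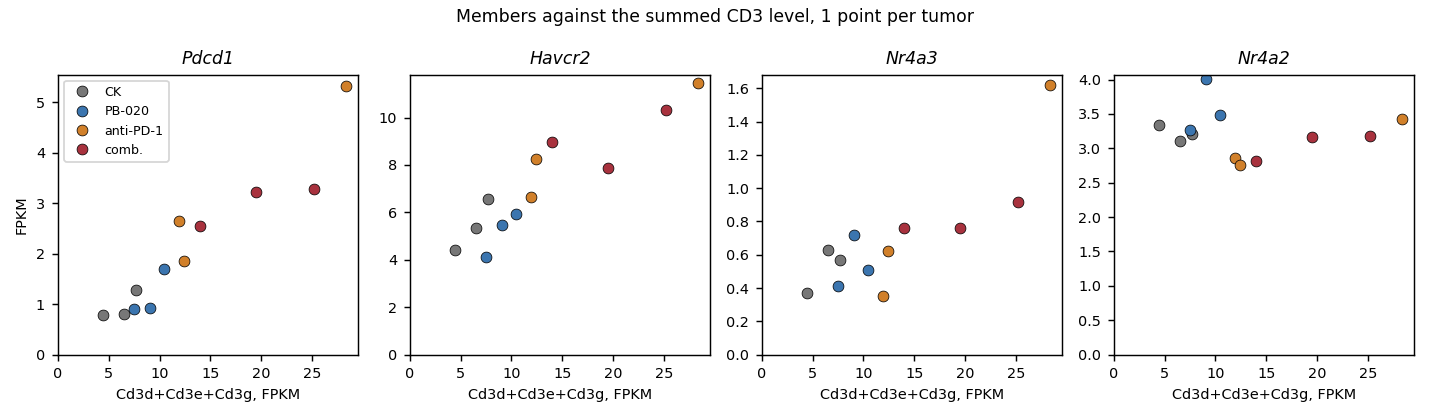
FPKM of Pdcd1, Havcr2, Nr4a3 and Nr4a2 (y axes, own scale, from 0) against the summed FPKM of Cd3d, Cd3e and Cd3g (x axes), 1 point per tumor, colored by group (comb. = combination). Pdcd1 and Havcr2 are highest in the tumor with the highest CD3 sum, 28.35 FPKM, and Nr4a2 stays between 2.76 and 4.01 at all CD3 levels.

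Most pairs of members also varied together between tumors of a group. Anti-PD-1 tumor 1, with the highest CD3 sum, was the highest of all 12 tumors for 8 of the 10 members, all but Cd160 and Nr4a2. That tumor also had the highest summed macrophage level, 1398 FPKM against 761.5 to 1045 in the others. Its summed dendritic cell level was the highest too, 21.25 FPKM against 10.28 to 17.65. The part of each in its member levels was not tested. Over the 12 tumors the Pearson correlation of log2(FPKM + 0.1) between pairs of the 7 receptors ranged from 0.529 to 0.963 with a median of 0.844 (21 pairs), and after the group means were subtracted it ranged from 0.138 to 0.896 with a median of 0.642. Over all 10 members with the group means subtracted, the range was -0.143 (Btla with Tox) to 0.936 (Tigit with Nr4a3), with a median of 0.571. Tox correlated with Nr4a3 at 0.108 and with Tigit at 0.174, but with Pdcd1 at 0.766. Nr4a2 correlated with the other 9 at -0.334 to 0.176 over all tumors, but at 0.313 to 0.846 after the group means were subtracted. With the group means subtracted, the 7 receptors correlated with Cd3e at 0.260 (Btla) to 0.872 (Lag3). With the macrophage marker Adgre1 they correlated at 0.260 (Btla) to 0.807 (Pdcd1). These values describe 12 libraries that share their treatment groups.

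The genes whose pattern over the 12 tumors was most like that of a member were, for Pdcd1, Cd8a (r = 0.972), Slamf7 and Cyfip2. For Ctla4 they were Gpr171 (r = 0.973), Icos and Hivep3, and for Lag3 Cd8a (r = 0.977), Cd86 and Cd2. Havcr2 was followed most closely by Cxcl16 (r = 0.977), Socs1 and Tnfrsf9, and Tigit by H2-Ab1 (r = 0.970), Plbd1 and Fgl2. For Cd160 the list held 2 receptors of natural killer cells, Klrd1 (r = 0.930) and Klre1, beside Fgl2. Tox followed Slamf7 (r = 0.923), Cyfip2 and Ier5, and Btla followed Tec (r = 0.864), P2ry10 and Clec11a. Nr4a2 was most like Fosb (r = 0.889), an immediate early gene of the AP-1 family, then Apba3. Nr4a3 was most like Dpep1 (r = 0.948), Car4 and Svep1. After the group means were subtracted, Ctla4 still had Icos among its closest 3, behind Lyz2 (r = 0.980), and Havcr2 still had Tnfrsf9. The other members kept none of their closest 3. Pdcd1 was then closest to Adamts5 (r = 0.950) and Lag3 to Pltp (r = 0.969), in place of Cd8a. Nr4a3 was closest to Tnnt1 (r = 0.967), a skeletal muscle gene.

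Other genes of the pathway were called higher in each of 5 lists, with 1 gene called lower in 2 of them. Their counts stand against the 4.18% of all genes called higher with anti-PD-1 and the 8.35% with the combination. Of 19 other inhibitory receptors tested, 2 were called higher with anti-PD-1, and 5 higher and 1 lower with the combination. Klrc1, the NKG2A chain, rose from 2.08 ± 0.39 FPKM in CK to 5.74 ± 2.58 FPKM with anti-PD-1 and 7.08 ± 2.0 FPKM with the combination (log2 changes 1.47 and 1.78, adjusted p = 0.0301 and 0.00815). Cd96, a receptor that shares its ligand with TIGIT, rose by 1.46 (SE 0.37, adjusted p = 0.0315) and 1.58 (SE 0.37, adjusted p = 0.0125) on the log2 scale. Klrd1, the CD94 partner of NKG2A, at 2.03 (SE 0.37, adjusted p = 0.00499), and Cd5, at 1.55 (SE 0.44, adjusted p = 0.0274), were called with the combination and not with the antibody alone. The difference between the antibody groups was not called for either (adjusted p = 0.664 and 0.985).

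Of 15 ligands of the member receptors, 1 was called higher with anti-PD-1, a share of the list near that of all genes, and 4 with the combination. Tnfrsf14, which encodes HVEM, the ligand of BTLA and CD160, was called in both, with log2 changes of 0.60 (SE 0.13, adjusted p = 0.0185) and 0.50 (SE 0.13, adjusted p = 0.0204). Cd86 and Cd80, the ligands of CTLA-4, changed by 0.71 (SE 0.18, adjusted p = 0.0209) and 0.94 (SE 0.26, adjusted p = 0.0242) with the combination, and H2-Aa, an MHC class II chain, by 0.82 (SE 0.25, adjusted p = 0.0476).

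Costimulatory receptors, which push in the opposite direction, were also called higher. Of 12 tested, 4 were higher with anti-PD-1, 6 with the combination and 11 in 6 tumors against 6, with a median log2 change of 1.49 in the last, against 1.20 for the members. Cd27, a member of the TNF receptor family, changed by 2.27 (SE 0.42, adjusted p = 0.00966) with anti-PD-1 and 2.12 (SE 0.42, adjusted p = 0.00596) with the combination. Cd226, the activating counterpart of TIGIT, changed by 1.73 (SE 0.45, adjusted p = 0.0335) and 2.19 (SE 0.45, adjusted p = 0.00700), Cd28 by 1.79 and 1.73, and Cd2 by 1.53 and 1.75.

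Of 29 other exhaustion and memory transcription factors, 5 were called higher and 1 lower in each antibody group against CK. Runx3, a factor of CD8 T cells, changed by 0.62 (SE 0.15, adjusted p = 0.0282) with anti-PD-1 and 0.73 (SE 0.15, adjusted p = 0.00815) with the combination. Bhlhe40, at 0.77 and 0.43, and Hif1a, at 0.45 and 0.43, were also called in both, at levels of 39.1 to 65.9 FPKM that are far above those of Tox. Zeb2, also expressed by macrophages, was the member of this list called lower, at -0.31 (SE 0.07, adjusted p = 0.0249) and -0.50 (SE 0.07, adjusted p = 0.00230). Nr4a1, the third NR4A gene, was not called, at 0.27 (SE 0.18, adjusted p = 0.376) with anti-PD-1 and 0.01 (SE 0.18, adjusted p = 0.980) with the combination.

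Of 18 genes that act downstream of the inhibitory receptors, 2 were called higher with anti-PD-1 and 3 with the combination, against 4.18% and 8.35% of all genes. They were Csk, a kinase that restrains Lck, at 0.34 (SE 0.08, adjusted p = 0.0219) and 0.33 (SE 0.08, adjusted p = 0.0132), and the phosphatase family genes Ubash3a, at 1.62 and 1.64, and Ubash3b, which was called with the combination alone at 0.43 (SE 0.11, adjusted p = 0.0214). PB-020 against CK and the combination against anti-PD-1 gave 0 calls by edgeR in each of these 5 lists, as among all genes. The lists share many T cell genes with the markers above, and their levels follow the same tumors.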

How the data were processed

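Whole MC38 tumors, 3 per group, were sequenced on an Illumina HiSeq X as paired reads. Per the methods, the authors aligned reads with Bowtie2 and quantified genes with RSEM against mm10. The submitters' processing notes also name HISAT, and GRCm38.p6 as the build. Annotation, versions and strandedness were not given in the sources used here. Expected counts from RSEM, deposited without normalization, are estimates, 91% of them whole numbers. The authors deposited FPKM values, which divide by transcript length and library total. TPM columns and the authors' group means were not used.

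Groups came from the sample labels. Expected counts were rounded, filtered with filterByExpr (minimum count 10), scaled by TMM, and fitted with a robust quasi-likelihood model (edgeR 4.0.16, R 4.3.3) with 4 group means over 12 tumors. All tests were two-sided, with Benjamini-Hochberg adjustment over 13563 genes. Standard errors came from the F statistic. The labels do not say that each tumor came from a separate mouse, so p values measure the spread between these tumors. The scripts were tested on simulated data. Members and lists were chosen with earlier results of these data known. Genes named beside the members are, from each pathway list, up to 4 with the smallest p among those called in either antibody group against CK, and the 3 whose log2(FPKM + 0.1) correlated best with each member among genes with a mean FPKM of at least 1. Some items are not reported here. Foxp3, Adgre1 and Nr4a1 were named after their values were seen. Non-overlap was judged on TMM-scaled counts. Alternatives were DESeq2 1.42.0, limma 3.58.1 on log2(FPKM + 1) or log2(FPKM + 0.1), other scalings and filters (minimum count 50 or none), the compared groups alone, a replicate block, the log2 CD3 level as covariate, a rule of fold over 1.5 with unadjusted p under 0.05, and leaving out each tumor. IDs of 18091 of the 18211 genes matched RefSeq genes of GRCm38.p6, from which coordinates were taken.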

Additional observations from a re-analysis of the deposited data

How the results depend on the processing

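With the members counted as called at an adjusted p under 0.05, anti-PD-1 against CK gave 5 calls, but 3 by limma on log2(FPKM + 1), 0 with only the groups compared, 0 with the CD3 covariate, and 0 to 6 when 1 tumor was left out (0 without CK tumor 2, 2 without CK tumor 1 or anti-PD-1 tumor 1, and 3 without CK tumor 3, anti-PD-1 tumor 3, PB-020 tumor 1, or combination tumor 2 or 3). The combination against CK gave 7, 0 with the CD3 covariate and 2 to 7 with 1 tumor left out (2 without CK tumor 2). The combination against PB-020 gave 3, but 6 by DESeq2, 7 with only the groups compared, 7 by the rule of fold over 1.5 with unadjusted p, 2 without a filter or with the strict filter, 0 with the CD3 covariate, and 0 to 6 with 1 tumor left out (6 without anti-PD-1 tumor 1, 5 without anti-PD-1 tumor 2, 1 without CK tumor 1). The combination against anti-PD-1 gave 0, and 1 by the fold rule. The 6 against 6 comparison gave 7, 0 with the CD3 covariate, 5 with the strict filter, which left 7 members, and 7 to 8 with 1 tumor left out. The same tumor numbers in different groups did not pair the tumors (correlations of deviations from -0.21 to 0.29, over 0.1 for 2 of 18 pairs). With a replicate block on those numbers, the calls were 5 in anti-PD-1 against CK, 7 in the combination against CK, 7 in 6 against 6, 2 in the combination against PB-020, and 0 in the others.

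Some single changes reversed. With the CD3 covariate, anti-PD-1 against CK became -0.017 for Havcr2, -0.037 for Cd160, -0.12 for Btla and -0.98 for Nr4a3, the combination against CK became -0.076 for Lag3, -0.066 for Havcr2 and -1.12 for Nr4a3, and 6 against 6 became -0.75 for Nr4a3. With 1 tumor left out, Nr4a3 with anti-PD-1 ranged from -0.093 (without anti-PD-1 tumor 1) to 1.07 (without anti-PD-1 tumor 2). The cause of these changes was not tested, except that the CD3 fit takes out what moves with the T cell level. For the PB-020 effect averaged over both antibody settings, DESeq2 gave no adjusted p for any member. Single-gene values were tallied for anti-PD-1 against CK, the combination against CK and 6 against 6. Beside the reversed values, 568 kept direction and side of the threshold, 60 lost it and 4 gained it. Counts of 5 to 34 per tumor for Tox and 7 to 48 for Cd160 limit those values most.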
